A study of Mus musculus with 8 samples.

Results

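The MHC class II genes of the mouse and Ciita, the coactivator that switches them on, were followed across 4 treatment groups of CT26 tumors in mice. The set holds 10 genes, Ciita, H2-Aa, H2-Ab1, H2-Eb1, H2-DMa, H2-DMb1, H2-DMb2, H2-Oa, H2-Ob and Cd74, matched by the gene name of every non-control probe. These names belonged to 19 of the 56567 probes kept, and 15 of the 19 were bright enough to be tested. After 1 probe per gene was kept, the 10 genes stood among 21497 tested genes. Ciita was chosen by its signal, which was among the largest rises against vehicle, so its values are given as a description without a test. The other 9 genes were listed for their role in class II presentation.

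CT26 is a colon carcinoma line of BALB/c mice, and 500000 cells were implanted under the skin of the flank. The mice then received, for 2 weeks, the vehicle alone, an oral daily dose of 75 mg/kg of TP-16 (BY001 in the labels), an anti-PD-1 antibody given into the peritoneum at 50 µg per mouse with 2 doses a week, or the agents together. EP4, one of the receptors that sense prostaglandin E2 on myeloid and other cells, is the target of TP-16, and PD-1 is a brake on activated T cells. Total RNA of 2 tumor samples per group was hybridised in 1 colour to 8 Agilent mouse arrays, and the labels do not say whether a sample was 1 tumor or a pool. The arrays reported whole tumor tissue, so cancer cells, leukocytes and stroma were measured together.

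A class II molecule is a pair of chains, alpha and beta, that shows peptides from the endosome to helper T cells. The invariant chain Cd74 fills the groove until the endosome is reached, H2-DM then exchanges its remnant for a peptide, and H2-O restrains H2-DM. Ciita binds no DNA itself. It is recruited by the RFX, NF-Y and CREB factors that sit on the X and Y boxes of class II promoters, and its own gene is silent in most cells, constitutive in dendritic cells and B cells, and inducible by interferon gamma, with Irf1 among the factors at its promoter.

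The promoters of the structural genes are shown first, since they carry the boxes through which Ciita acts. RefSeq sequence of the GRCm38.p6 build was at hand for 7 of the 10 members. The 250 bases before each start site were searched on both strands for the Y box letters ATTGG and for the X box core letters ACNGATG. The matches below do not overlap each other, and capitals mark the core on the left, where there is one, and the Y box on the right. H2-Eb1 (chr17:34305748-34305832, plus strand), H2-DMb1 (chr17:34153070-34153154, plus strand) and H2-DMb2 (chr17:34145099-34145183, plus strand) hold both. H2-Aa (chr17:34287847-34287931, minus strand) and H2-Ob (chr17:34238788-34238872, plus strand) match only the Y box letters in the stretch printed. The core letters are a short exact string, so an X box that varies from them is missed, and no match does not mean no X box.
H2-Eb1: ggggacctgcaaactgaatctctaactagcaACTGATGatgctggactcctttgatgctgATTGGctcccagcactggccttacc
H2-DMb1: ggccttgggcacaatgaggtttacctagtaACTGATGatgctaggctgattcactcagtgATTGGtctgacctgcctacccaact
H2-DMb2: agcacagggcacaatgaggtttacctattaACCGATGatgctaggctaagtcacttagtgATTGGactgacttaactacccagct
H2-Aa: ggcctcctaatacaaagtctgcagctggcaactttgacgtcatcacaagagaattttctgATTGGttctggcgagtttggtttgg
H2-Ob: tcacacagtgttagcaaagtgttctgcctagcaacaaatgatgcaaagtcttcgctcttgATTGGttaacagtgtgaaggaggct

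ATTGG was found in a window of each of the 7 members and in 33.8% of all 32851 promoter windows. The core was found on either strand for 5 of the 7 members and in 8.31% of all windows. The core followed by ATTGG after a gap of at most 40 bases, an arrangement chosen after the sequences had been seen, was found for 3 of the 7 members and in 0.274% of all windows. In H2-DMb1 and H2-DMb2, which are near copies of each other, the gap was 23 bases, and in H2-Eb1 it was 22 bases. These matches are letters in a window and say nothing of binding in the tumors. The sequence is that of the reference strain, C57BL/6, whereas BALB/c mice carry another haplotype of this region, the d haplotype, whose sequence was not used here.

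Values below are log2 processed signals minus log2 of the 75th percentile of the same array, so a value of 0 lies at that percentile. They compare arrays for 1 probe and not 1 probe with another. The 75th percentile ran from 575 to 1124 scanner units, the share of probes well above background ran from 51.4% to 59.7%, and no probe was saturated. All 8 arrays lay on 1 slide, where the slide row follows the antibody and the slide column follows TP-16, so position and treatment cannot be told apart. Vehicle replicate 1 stood apart for the class II genes, and differences from vehicle are given with and without it for Ciita and for the members named with a difference in the combination or with an agent alone. Leaving out an array leaves 1 in its group, which is then taken to vary like the other groups. Calls from such fits do not measure the spread of that group. Probe sequences were not compared with the BALB/c haplotype.

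Ciita was best measured by the probe at chr16:10526458-10526517 (mm9 build). Its log2 values were -3.08 and -0.21 with vehicle, 1.92 and 0.98 with TP-16, 1.58 and 1.22 with anti-PD-1, and 2.93 and 3.49 with the combination. All 6 treated arrays lay above both vehicle arrays, the combination arrays lay above every other array, and the single-agent arrays overlapped. Against vehicle the log2 difference was 3.10 ± 0.91 (SE, 2 arrays a group) with TP-16, 3.05 ± 0.91 with anti-PD-1 and 4.86 ± 0.91 with the combination, or 29.0-fold for the last. Ciita ranked 3 from the top among 21497 genes in the combination, 7 with TP-16 and 15 with anti-PD-1, which is how it was chosen. The vehicle arrays themselves differed by 2.87 on the log2 scale, or 7.29-fold, and the combination difference was 3.43 without vehicle replicate 1 and 6.29 without vehicle replicate 2. Against vehicle replicate 2 alone it was 1.66 with TP-16 and 1.61 with anti-PD-1. In whole tumors, fewer cells that carry a transcript and less transcript per cell cannot be told apart.

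A further Ciita probe named for the same transcripts, at chr16:10525904-10525963, ran in parallel. It read -6.76 and -3.97 with vehicle, -2.05 and -3.08 with TP-16, -2.63 and -3.03 with anti-PD-1, and -1.25 and -0.53 with the combination. Vehicle replicate 1 was not well above background there. The probe at chr16:10492271-10492330, named for another clone, was well above background on 3 arrays, both combination arrays among them, and on no vehicle array. Its combination signal was at least 1.25-fold higher than vehicle, where the bound sets the dim arrays at the lowest signal well above background. The probe at chr16:10512788-10512847 was well above background on none of the 8 arrays.

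**Figure D1:**
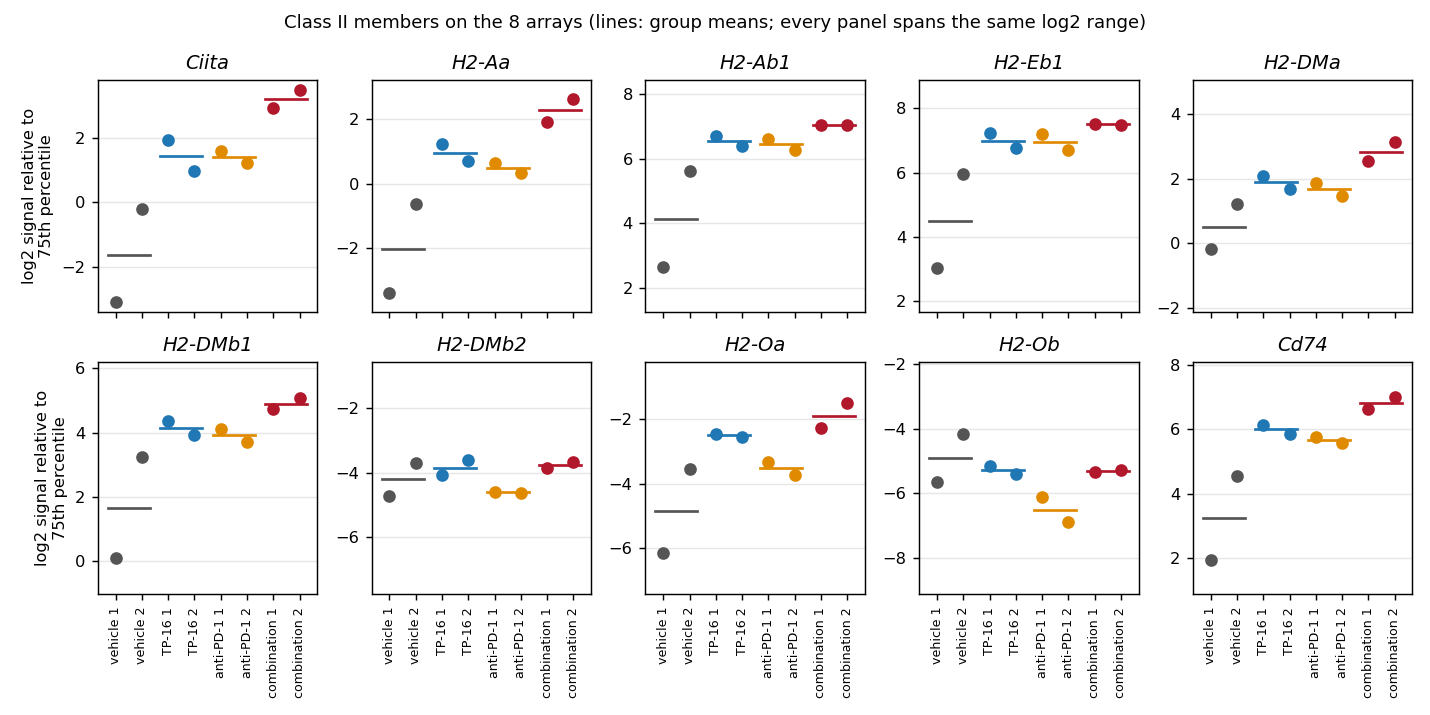
Log2 signal relative to the 75th percentile of each array (vertical axis) on the 8 arrays (horizontal axis, replicates 1 and 2 of each group) for the 10 genes, 1 probe each; points are arrays, lines are group means, and every panel spans the same log2 range. Vehicle replicate 1 is the lowest array for the 9 genes other than H2-Ob, and both combination arrays are the highest for the 8 genes other than H2-DMb2 and H2-Ob.

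Of the classical chains that hold the peptide, H2-Aa and H2-Eb1 passed in the combination, and the call for H2-Ab1 depended on the probe. The call for H2-Eb1 was lost with no filter on dim probes and with other settings given below. H2-Aa, the alpha chain of I-A, read -3.39 and -0.64 with vehicle, 1.22 and 0.71 with TP-16, 0.64 and 0.34 with anti-PD-1, and 1.92 and 2.64 with the combination. All treated arrays exceeded both vehicle arrays, both TP-16 arrays exceeded both anti-PD-1 arrays, and the combination exceeded all. It differed from vehicle by 4.30 ± 0.85 on the log2 scale in the combination (SE, 19.6-fold, limma adjusted p = 0.0185). Without vehicle replicate 1 this was 2.92.

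H2-Eb1, the beta chain of I-E, read 3.05 and 5.95 with vehicle, 7.22 and 6.76 with TP-16, 7.19 and 6.70 with anti-PD-1, and 7.51 and 7.48 with the combination. The treated arrays lay close together, all above vehicle, and the 2 vehicle arrays differed more than any treated pair. In the combination it was 7.98-fold higher than with vehicle (SE of 0.87 on the log2 scale, limma adjusted p = 0.0481). The log2 difference was 1.55 without vehicle replicate 1, and without vehicle replicate 2 it was 4.45. Cd74, the invariant chain, read 1.95 and 4.55 with vehicle, 6.13 and 5.85 with TP-16, 5.76 and 5.56 with anti-PD-1, and 6.63 and 7.01 with the combination. Every treated array was above both vehicle arrays, in the order combination, TP-16, anti-PD-1 with no overlap between the groups. Combination and vehicle differed by 3.57 ± 0.78 (11.9-fold, limma adjusted p = 0.0232), and by 2.27 without vehicle replicate 1.

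H2-Ab1, the beta chain of I-A, had 4 probes, all well above background on 8 arrays. The brightest, at chr17:34406296-34406355, read 2.66 and 5.62 with vehicle, 6.72 and 6.41 with TP-16, 6.61 and 6.29 with anti-PD-1, and 7.05 and 7.04 with the combination. Its treated arrays all exceeded vehicle, but its difference of 2.91 ± 0.88 missed the threshold (limma adjusted p = 0.0529). That difference was smaller without vehicle replicate 1, at 1.43. The brightest probe overlaps the probe at chr17:34406305-34406363 and differs from it at 1 of 51 shared bases, T51C counted from the first base of the brighter probe. The stretches around that base, in capitals, show how alike the pair is.
H2-Ab1, brighter probe: agattacaaataaacgagacTcagactctg
H2-Ab1, overlapping probe: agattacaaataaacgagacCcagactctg

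The overlapping probe differed by 3.04 (limma adjusted p = 0.0510). The other H2-Ab1 probes passed, at 3.55 (chr17:34406059-34406118, limma adjusted p = 0.0331) and 3.95 (chr17:34404357-34404416, limma adjusted p = 0.0255). Folds thus differed between probes of 1 gene in the reverse order of their mean intensity, which was 9885 scanner units for the probe with the difference of 3.95 and 71263 for the probe with 2.91. On the combination arrays the dimmest probe read 4.19 and 4.87, and the brightest 7.05 and 7.04. Whether compression of bright signals had a part in this was not tested, and no spot was marked as saturated. With the mean of the 4 probes in place of the brightest, H2-Ab1 passed (difference 3.36, limma adjusted p = 0.0373).

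**Figure D2:**
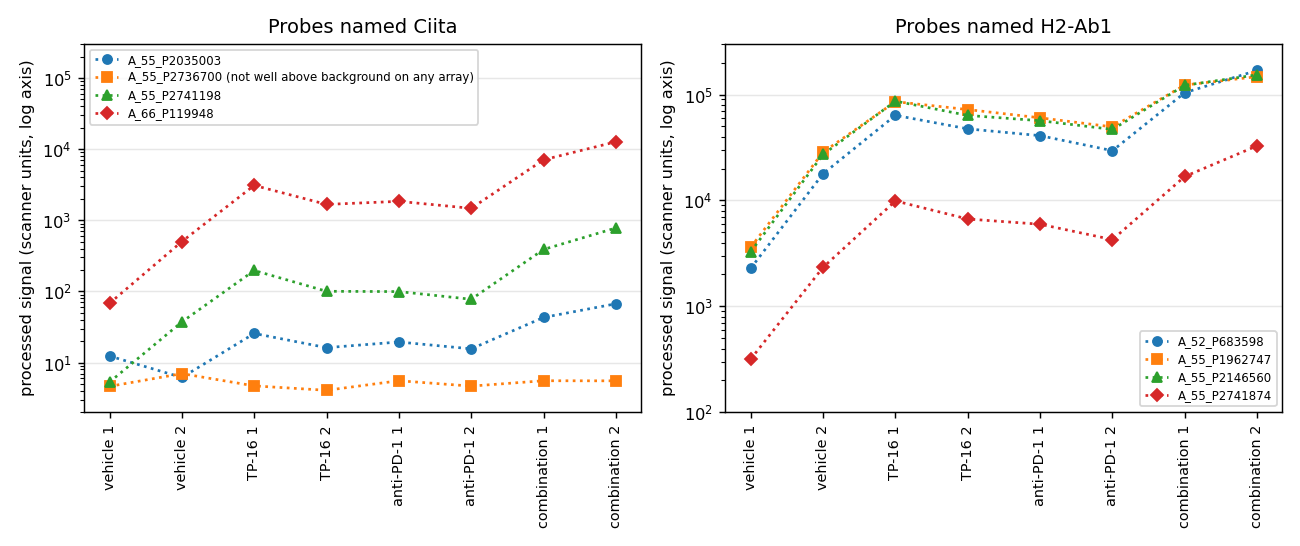
Processed signal in scanner units (vertical log axis) of every probe named Ciita (left) and H2-Ab1 (right) on the 8 arrays (horizontal axis); each marker shape is a probe, and dotted lines only join its arrays. The 2 main Ciita probes and the 4 H2-Ab1 probes follow the same course, and the dimmest H2-Ab1 probe spans the widest range.

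H2-DM, the peptide editor, is a pair of H2-DMa with a DMb chain. H2-DMa read -0.18 and 1.22 with vehicle, 2.09 and 1.69 with TP-16, 1.87 and 1.48 with anti-PD-1, and 2.55 and 3.13 with the combination. H2-DMb1 read 0.10 and 3.24 with vehicle, 4.37 and 3.91 with TP-16, 4.12 and 3.70 with anti-PD-1, and 4.73 and 5.07 with the combination. For both genes vehicle lay below all treated arrays and the combination above all others. Against vehicle the combination difference was 2.32 ± 0.48 for H2-DMa (limma adjusted p = 0.0205), and 3.23 ± 0.95 for H2-DMb1 (limma adjusted p = 0.0488). Leaving out vehicle replicate 1 gave 1.61 for H2-DMa and 1.65 for H2-DMb1.

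H2-DMb2, the neighbouring copy of H2-DMb1 with the same box arrangement in its promoter, did not pass. It read -4.72 and -3.69 with vehicle, -4.07 and -3.61 with TP-16, -4.60 and -4.62 with anti-PD-1, and -3.84 and -3.65 with the combination. Vehicle overlapped every treated group. The combination difference was 0.46 (95% interval -0.39 to 1.31, limma adjusted p = 0.340), and its probe was well above background on 6 arrays. That difference was -0.05 without vehicle replicate 1 and 0.97 without vehicle replicate 2.

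H2-O, the brake on H2-DM, is a pair of H2-Oa and H2-Ob, of which H2-Oa passed the test and H2-Ob did not, though the difference between them was not tested. H2-Oa read -6.15 and -3.53 with vehicle, -2.44 and -2.53 with TP-16, -3.32 and -3.72 with anti-PD-1, and -2.27 and -1.49 with the combination. Combination and TP-16 lay above vehicle, whereas anti-PD-1 overlapped it, and vehicle replicate 1 was not well above background. The combination exceeded vehicle by 2.96 ± 0.81 (limma adjusted p = 0.0408), and by 1.65 without vehicle replicate 1.

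H2-Ob read -5.66 and -4.17 with vehicle, -5.17 and -5.42 with TP-16, -6.12 and -6.90 with anti-PD-1, and -5.35 and -5.29 with the combination. Its probe was well above background on 4 arrays, of which only 1 was a vehicle array and none an anti-PD-1 array, so no fold is given for anti-PD-1. The combination difference was -0.41 (95% interval -1.65 to 0.83, limma adjusted p = 0.561). That difference was -1.15 without vehicle replicate 1 and 0.33 without vehicle replicate 2. The other H2-Ob probes were not well above background, except for 1 of them on 1 vehicle array.

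Over the 9 genes other than Ciita, 6 were at least 2-fold higher in the combination than with vehicle at adjusted p of at most 0.05 (H2-Aa, H2-Eb1, H2-DMa, H2-DMb1, H2-Oa and Cd74), and 0 were lower. Over all genes tested, 5.7% were called higher by that rule and 8.2% lower, and since the contrast also led to the set, nothing is read from the gap. At the threshold of the methods, a fold of 2 with an unadjusted p of at most 0.05, 7 of 9 were higher and 0 lower, against 6.81% and 9.99% of all genes. The median log2 difference of the 9 was 2.96, and that of all genes -0.22. All 6 calls were lost when either combination array was left out, and 3 genes were called without any 1 of the single-agent arrays. Without combination replicate 2, 0 genes of the whole array were called at adjusted p (3 of 9 at the unadjusted threshold), and without replicate 1 there were 889 higher and 1916 lower. With either vehicle array left out, 7 of 9 were called, against 4.15% of all genes higher without vehicle replicate 1 and 6.54% without vehicle replicate 2. By the methods' t-test 0 of 9 were called at either threshold, and in a fit of the compared groups alone 0 at adjusted p and 6 at the unadjusted one. With the trended robust prior H2-Eb1 and H2-DMb1 lost their calls.

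TP-16 alone gave 7 of 9 genes higher and 0 lower at the unadjusted threshold, against 1.59% and 4.96% of all genes. By limma 0 passed at adjusted p, where 1 gene of all tested was higher (0.00465%) and 0.0512% were lower. Its log2 differences were 2.98 ± 0.85 for H2-Aa, 2.74 ± 0.78 for Cd74, 2.43 ± 0.88 for H2-Ab1, 2.49 ± 0.87 for H2-Eb1, 2.47 ± 0.95 for H2-DMb1, 2.36 ± 0.81 for H2-Oa and 1.37 ± 0.48 for H2-DMa, and the smallest limma adjusted p of the 9 was 0.119. With vehicle replicate 1 left out they were 1.60 for H2-Aa, 1.44 for Cd74, 0.94 for H2-Ab1, 1.04 for H2-Eb1, 0.90 for H2-DMb1, 1.05 for H2-Oa and 0.67 for H2-DMa. Which genes passed the unadjusted threshold changed when 1 array was left out, so these calls were not stable.

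Anti-PD-1 alone gave 4 of 9 genes higher and 1 lower at the unadjusted threshold, against 1.96% and 2.18% of all genes. The higher genes were H2-Aa (2.51), H2-Ab1 (2.31), H2-Eb1 (2.44) and Cd74 (2.41). Their differences without vehicle replicate 1 were 1.13, 0.83, 0.99 and 1.11 in the same order. The lower gene was H2-Ob, on arrays where it was not well above background. None of the 9 passed at adjusted p, where 0.0279% of all genes were higher and 0.0465% lower, and the smallest limma adjusted p was 0.309 (Cd74) among the genes other than H2-Ob. The calls with anti-PD-1 at the unadjusted threshold also changed when 1 array was left out and were not stable. With vehicle replicate 2 left out, 5 of 9 passed at adjusted p for anti-PD-1 and 6 of 9 for TP-16, against 0.851% and 0.777% of all genes higher, and with vehicle replicate 1 left out 0 passed for either.

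**Figure D3:**
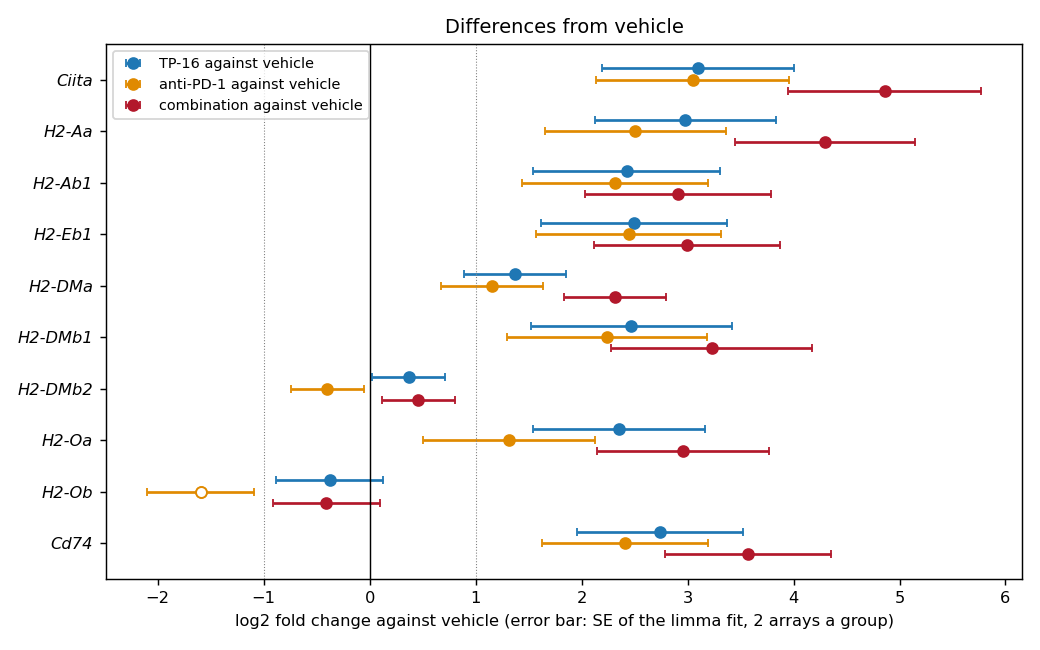
Log2 fold change against vehicle (horizontal axis) of the 10 genes (vertical axis) with each agent alone and with the combination; error bars are the SE of the limma fit with 2 arrays a group, and dotted lines mark a fold of 2. The open point, H2-Ob with anti-PD-1, was not well above background in that group and is no measured difference. The combination is the highest point for the 9 genes other than H2-Ob, from 0.46 for H2-DMb2 to 4.86 for Ciita.

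The spread between arrays was widest in the vehicle group for each of the 10 genes. Vehicle replicate 2 read higher than vehicle replicate 1 for all 10 genes, by 6.08-fold for Cd74 to 8.86-fold for H2-DMb1 in 7 of them, and by 2.03-fold for H2-DMb2, 2.64-fold for H2-DMa and 2.80-fold for H2-Ob. For H2-DMb2, H2-Oa and H2-Ob only 1 of the 2 vehicle arrays was well above background. Over all genes, 7.88% were at least 2-fold higher on vehicle replicate 2, and the median difference was 0.06 on the log2 scale. Vehicle replicate 1 was the lowest of the 8 arrays for 9 members and for 15.8% of all genes. All 6 treated arrays exceeded both vehicle arrays for 7 of the 10 members, Ciita among them, against 8.82% of all genes. Both combination arrays exceeded the other 6 for 8 of the 10, Ciita among them, against 14.1%. Both arrays of a group lay above both vehicle arrays for 8 of the 10 in the combination, 8 with TP-16 and 7 with anti-PD-1, against 23.8%, 16.9% and 16.3% of all genes. Ciita, chosen for its rise, is in each of these counts, so nothing is read from the gaps.

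Whether the combination went beyond each single agent was not resolved for any member. Against TP-16 the combination difference was positive for 8 of 9 genes with a median of 0.60, and against anti-PD-1 it was positive for 9 of 9 with a median of 1.16, H2-Ob being not well above background with anti-PD-1. By limma 0 of 9 passed at adjusted p in either comparison (smallest adjusted p of 0.311 and 0.190). Without the fold, 0 reached an unadjusted p of 0.05 against TP-16, and H2-DMb2 alone did against anti-PD-1, at a difference of 0.86 that is below 2-fold. With either vehicle array left out, which alters only the spread here, 1 gene passed the unadjusted threshold against TP-16 (H2-Aa) and 5 against anti-PD-1 (H2-Aa, H2-DMa, H2-Oa, H2-Ob and Cd74), against 4.69% and 3.08% of all genes. Of all genes, 4.04% were higher and 0.861% lower than with TP-16, and 2.46% higher and 2.31% lower than with anti-PD-1, at the unadjusted threshold. At adjusted p the share was 0% except for 0.014% lower than with anti-PD-1.

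These differences had wide intervals. H2-Aa was 1.32 higher than with TP-16 (95% interval -0.78 to 3.41) and 1.79 higher than with anti-PD-1 (-0.31 to 3.89). H2-Oa was 0.60 (-1.39 to 2.60) and 1.64 (-0.36 to 3.63) higher, and H2-DMa 0.95 (-0.24 to 2.13) and 1.17 (-0.02 to 2.35). For Ciita the differences were 1.76 ± 0.91 and 1.81 ± 0.91 (SE). TP-16 and anti-PD-1 differed by 0.05 for H2-Eb1 to 1.04 for H2-Oa in the genes other than H2-Ob, TP-16 the higher with all arrays in the fit (H2-Ab1 and H2-Eb1 turned when TP-16 replicate 1 or anti-PD-1 replicate 2 was left out), with 0 calls by limma at either threshold and a smallest adjusted p of 0.604 (H2-DMb2). With either vehicle array left out, H2-Oa and H2-Ob passed the unadjusted threshold there. Of all genes, 0.172% were higher with TP-16 and 1.49% lower at the unadjusted threshold, and 0.014% lower at adjusted p.

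The sum of the single-agent differences was also compared with the combination. A negative value means that the combination rose by less on the log2 scale than both agents summed. It was negative for 7 of the 8 genes other than H2-Ob, from -1.94 for H2-Eb1 to -0.20 for H2-DMa, and positive for H2-DMb2 (0.49). These signs rested on the vehicle arrays. Without vehicle replicate 1 it was negative for 3 of the 8 (H2-Eb1 at -0.49, H2-Ab1 at -0.35 and Cd74 at -0.28) and positive for 5, with H2-Aa at 0.18 and H2-Oa at 0.59, and without vehicle replicate 2 it was negative for all 8. No value is given for H2-Ob, which was not well above background with anti-PD-1. With all arrays 0 of the 8 passed in limma at adjusted p (smallest 0.822, for H2-Eb1) or at an unadjusted p of 0.05. Across the 8 the value ran from -3.39 for H2-Eb1 to -0.02 for H2-DMb2 without vehicle replicate 2. It ran from -0.49 for H2-Eb1 to 1.01 for H2-DMb2 without vehicle replicate 1. Of all genes, 2.77% were above the sum and 0.488% below it at the unadjusted threshold. All of these comparisons share the vehicle arrays.

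The members followed Ciita across arrays to different extents, given here as a description. Over the 8 arrays, which include the low vehicle replicate 1, Pearson's r with Ciita was 0.994 for H2-Aa, 0.986 for Cd74, 0.985 for H2-DMa, 0.973 for H2-DMb1, 0.958 for H2-Eb1, 0.955 for H2-Ab1 and 0.941 for H2-Oa. It was 0.482 for H2-DMb2 and -0.05 for H2-Ob. Over the 6 treated arrays alone r stayed between 0.776 for H2-Oa and 0.974 for H2-DMa among the former 7. Without vehicle replicate 1 and combination replicate 2, the arrays farthest from the median of Ciita, r ran from 0.652 for H2-Oa to 0.977 for H2-Ab1 among these 7, and was -0.19 for H2-DMb2 and -0.34 for H2-Ob. Genes outside class II followed Ciita too. Over the 6 treated arrays r was 0.987 for Ptprc and Tap1, 0.976 for Adgre1, 0.949 for Ifng, 0.857 for Irf1 and 0.839 for Itgax. The slope over treated arrays was 0.86 for H2-Aa, 0.60 for H2-DMa, 0.32 for H2-Eb1 and 0.30 for H2-Ab1 per log2 unit of Ciita, against 0.89, 0.47, 0.69 and 0.68 over all 8.

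**Figure D4:**
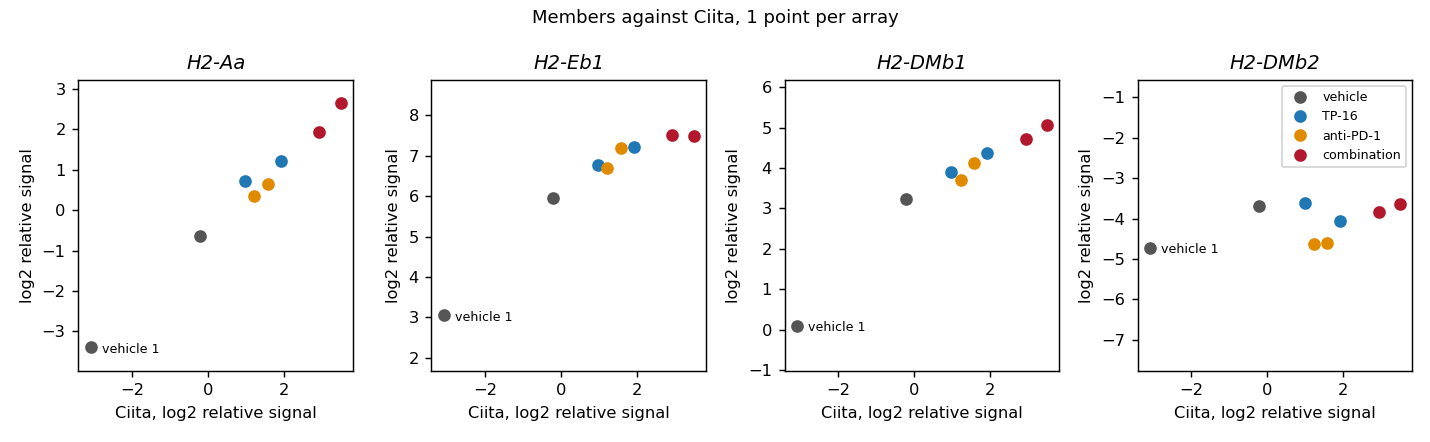
Log2 relative signal of H2-Aa, H2-Eb1, H2-DMb1 and H2-DMb2 (vertical axes) against that of Ciita (horizontal axis), 1 point per array, coloured by group. H2-Aa climbs with Ciita through the combination arrays, H2-Eb1 levels off at 7.51 and 7.48, and H2-DMb2 shows no such course. Each gene is shown by 1 probe, and whether compression of bright signals had a part was not tested.

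Other genes shared the Ciita pattern. Of the genes reported here other than the members, the 10 with the highest r over the 8 arrays were Parp14 (0.998), H2-Ea-ps, Gm4759, Gbp8, Serpinb1b, Fasl, Samhd1, Gimap3, Cfb and Gbp9 (0.993). The 10 closest to the mean of H2-Aa, H2-Ab1, H2-Eb1 and Cd74 were Il2rb (0.996), Sectm1a, Parp10, an unnamed transcript, Erap1, Cd8a, Dhx58, Skap1, Tap1 and Tapbpl (0.992). These correlations are descriptions over 8 arrays that share the low vehicle replicate 1. Gbp8 and Gbp9 are interferon-induced, Tap1 loads class I, and Cd8a and Il2rb mark lymphocytes. H2-Ea-ps is the I-E alpha gene under the name it has in the reference strain, where it is a pseudogene. It read -2.75 and -0.08 with vehicle, 1.90 and 1.17 with TP-16, 1.39 and 1.02 with anti-PD-1, and 2.51 and 3.21 with the combination, a combination difference of 4.27 ± 0.84 (limma adjusted p = 0.0182). That difference was 2.94 without vehicle replicate 1 and 5.60 without vehicle replicate 2, and the call was lost without either combination array (limma adjusted p = 0.0531 and 0.113). H2-Eb2 was not bright enough to be tested.

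Of the factors that sit on class II promoters (Rfx5, Rfxap, Rfxank, Nfya, Nfyb, Nfyc and Creb1), 0 of 7 were called in limma in any comparison with vehicle, at the adjusted or the unadjusted threshold. Their median difference in the combination was 0.01, beside -0.22 for all genes. Their range ran from -0.50 for Rfxank (limma adjusted p = 0.0556) to 0.43 for Rfx5 (limma adjusted p = 0.346).

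Of 9 genes that lead from interferon gamma to Ciita, 3 were higher in the combination at adjusted p and 0 lower, against 5.7% and 8.2% of all genes. Their median difference was 0.67. Ifng itself read -4.21 and -1.11 with vehicle, 0.14 and -0.62 with TP-16, 0.46 and 0.09 with anti-PD-1, and 1.06 and 1.77 with the combination, where the difference was 4.07 (limma adjusted p = 0.0280). Its low array was again vehicle replicate 1, and all treated arrays were above vehicle. Irf1, a factor at the Ciita promoter, differed by 1.64 (limma adjusted p = 0.0295). Socs1, a feedback inhibitor, differed by 1.12, and Ifngr2, a receptor chain, was the lowest at -0.31 and did not pass. Without vehicle replicate 1, 2 of the 9 passed, Ifng at 2.52 and Irf1 at 1.03, and without combination replicate 1, 1 passed. At the unadjusted threshold 1 of the 9 was higher with TP-16 and 2 with anti-PD-1, against 1.59% and 1.96% of all genes. With combination replicate 2 left out, 0 genes of this or any later list were called in the combination.

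Repressors of Ciita (Prdm1, Zbtb32 and Bhlhe40) gave 0 of 3 calls at adjusted p, with a median of 0.52. Zbtb32 was at 1.54 (limma adjusted p = 0.0761), or 0.70 without vehicle replicate 1 and 2.37 without vehicle replicate 2. By the same rule 5.7% of all genes were higher and 8.2% lower, which applies to each list here. Of 9 endosomal proteases and helpers (median 0.42), 3 were higher, namely Ctsh (1.58), Ctss, which trims the invariant chain (1.03), and Ifi30, a thiol reductase (1.01). Ctsl was lowest at -0.70. Without vehicle replicate 1, 0 of these 9 passed the fold and adjusted p together, with Ctss at 0.63. In the turnover and costimulation list (median 0.66), Cd83, which stabilises surface class II, was the 1 call of 6 (1.14, limma adjusted p = 0.0450). March1, which removes surface class II, was lowest at -1.97 (limma adjusted p = 0.210). It was -0.64 without vehicle replicate 1 and -3.30 without vehicle replicate 2. Of 6 genes of class I loading encoded beside class II or regulated with it, 2 passed, Tap2 (1.66) and Nlrc5, the class I counterpart of Ciita (1.61), and B2m was lowest (-0.46). The median of these 6 was 1.58, and it was 0.66 without vehicle replicate 1 (Tap2 at 1.05, Nlrc5 at 0.89) and 2.31 without vehicle replicate 2. With vehicle replicate 1, vehicle replicate 2 or combination replicate 1 left out, the calls were 1, 5 and 0 in this list and 1 (Cd80), 2 (Cd86 and Cd40) and 0 in the turnover list, Cd83 being called in none of these.

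Markers of cells that carry class II went different ways. The share of all genes called in the combination was 5.7% higher and 8.2% lower. Of 11 dendritic cell markers 8 were higher in the combination and 0 lower (median 1.65, or 1.62 with the 3 genes not well above background with vehicle at their bounds). Clec9a was not well above background on either vehicle array and was at least 8.89-fold higher in the combination. Flt3 (2.97) and Clec10a (2.09) came next, and Siglech was lowest (-0.72). Of 10 macrophage markers 6 were higher (median 1.03), led by Adgre1 (2.07), Fcgr1 (1.38) and Mertk (1.23), with Cd14 lowest (-0.49). Ptprc, the pan-leukocyte antigen, rose by 1.89. Without vehicle replicate 1 the calls were 6 of 11 and 2 of 10 (Fcgr1 at 0.89), and without combination replicate 1 they were 4 and 5. Ptprc passed in both.

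Summed linear signal of the macrophage list, in units of the 75th percentile, was 109 to 146 with vehicle, 143 to 153 with TP-16, 130 to 156 with anti-PD-1 and 191 to 268 with the combination. The dendritic list summed to 40.8 to 48.2, 30.4 to 43.7, 45.5 to 46.4 and 48.8 to 52.5 in the same order. Siglech, the brightest probe of that list, made up 33.6% to 85.8% of the sum, and the other 10 summed to 6.85 to 11.4, 14.0 to 18.9, 13.4 to 18.6 and 23.5 to 34.9. T-cell markers (median 2.81), of which 2 of 6 passed (Cd8a at 3.78, with 1 of its 2 vehicle arrays well above background, and Cd3e at 1.83, with Cd4 lowest at 0.42), summed to 1.92 to 7.51, 10.2 to 12.1, 9.70 to 11.8 and 14.7 to 25.2. B-cell markers (median -1.69, or -1.17 with Cd79a at its bound) gave 3 of 5 lower and 0 higher, namely Ms4a1 (-2.49), Pax5 (-1.71) and Cd79a, which was not well above background in the combination and was at least 2.24-fold lower. That list summed to 0.796 to 1.04, 0.374 to 0.891, 0.698 to 0.699 and 1.01 to 1.22. Cd79b, at 1.84 (limma adjusted p = 0.119) or 0.91 without vehicle replicate 1, made up 16.7% to 88.5% of it. The other 4 summed to 0.560 to 0.663, 0.211 to 0.328, 0.320 to 0.378 and 0.141 to 0.247. Fcer2a and Blk could not be tested. Beside these counts, 5.7% of all genes were higher in the combination and 8.2% lower. Without vehicle replicate 2 the T-cell calls were 5 and the B-cell calls 1, and without combination replicate 1 the T-cell calls were 0. The T-cell median was 1.33 without vehicle replicate 1, where Cd8a was at 1.97 and Cd3e at 1.22, and 4.30 without vehicle replicate 2.

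Of 7 colon epithelium markers, read as a check on the labelled carcinoma, Epcam, Cdx1 and Vil1 were too dim to be tested and Krt8 and Krt18 were well above background on all 8 arrays. Of the 4 tested (median -2.02), 2 were lower in the combination, Krt18 (-1.38) and Cdx2, which was not well above background there and was at least 6.83-fold lower, and 1 was lower without vehicle replicate 1. That list summed to 5.96 to 8.63 with vehicle, 4.50 to 5.69 with TP-16, 4.75 to 5.18 with anti-PD-1 and 2.14 to 3.30 with the combination, with 93.1% to 98.2% of it from Krt18. The part of these cell types in the class II differences was not tested. By the same rule 8.2% of all genes were lower in the combination. The lists were chosen with earlier results of these samples known, so their counts are not independent evidence.

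**Figure D5:**
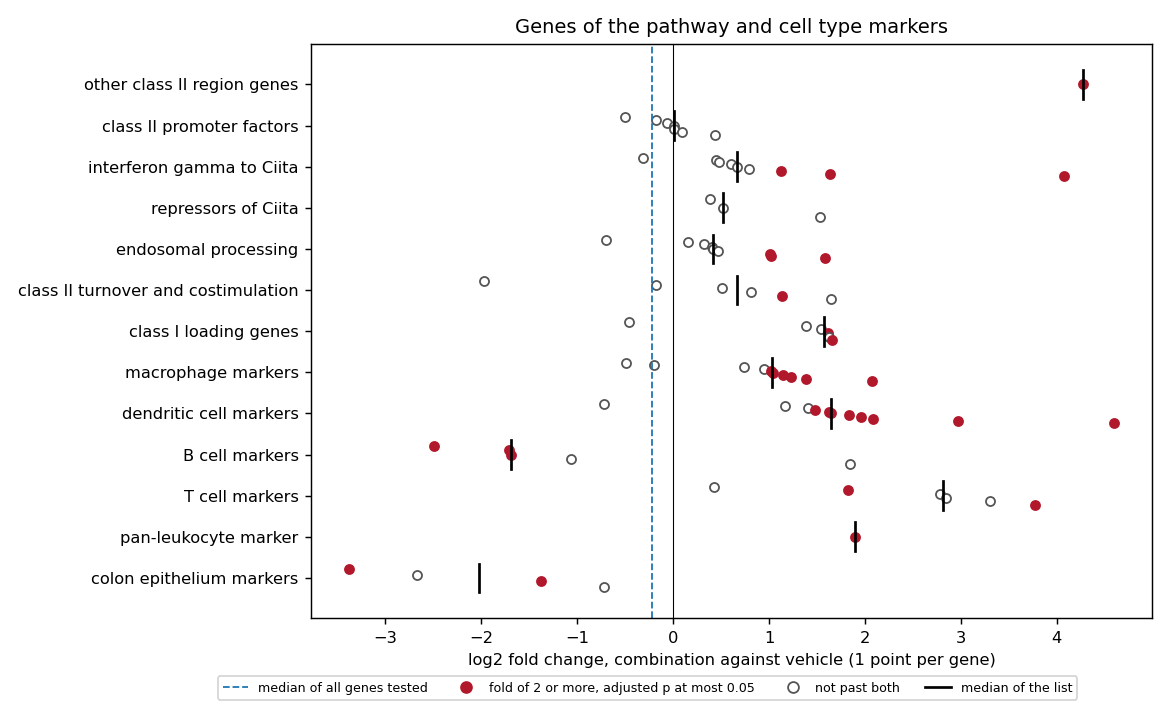
Log2 fold change in the combination against vehicle (horizontal axis) of each gene of the pathway and marker lists (rows, 1 point per gene); filled points passed a fold of 2 with an adjusted p of at most 0.05, black bars are list medians and the dashed line is the median of all genes. Promoter factors cluster around 0.01, while the interferon gamma and T-cell lists extend to 4.07 and 3.78. Genes not well above background in 1 group, Clec9a at the far right among them, are drawn at their fitted values, which are no measured differences.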

How the data were processed

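RNA from CT26 tumors of 4 treatment groups, 2 samples each, was read on 8 one-colour arrays. The authors deposited scanner output in which spot intensity had been background-subtracted and detrended by Agilent Feature Extraction (10.7.1.1 in the submitters' processing notes), and also log2 values that the methods attribute to GeneSpring. The methods name TRIzol and the labels a column kit for RNA.

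Non-control spots marked as outliers were left out, and the other spots of a probe were averaged. The 38 probes with no unmarked spot on some array were dropped, and log2 of the array's 75th percentile was subtracted. A probe was tested when some group had it well above background on both of its arrays (31912 probes). All 8 arrays entered 1 fit in limma 3.58.1 (R 4.3.3, files read with version 1.17.8 of data.table) with 1 mean per group, empirical Bayes moderation and Benjamini-Hochberg adjustment over all tested probes. Calls needed a fold of 2 with an adjusted p of at most 0.05, or with an unadjusted p of at most 0.05 as in the methods. A gene took its tested probe with the highest mean. P-values of this fit rest on the spread between 2 samples a group, pooled over the 4 groups and moderated by that of all tested probes. The number of arrays limits the precision.

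Members and gene lists were chosen with earlier results of these data known. Named genes were all members with all probes, the called genes of each list up to the 3 largest differences in the combination, its lowest gene, and the 10 genes, members left out, most correlated with Ciita and with the mean of 4 members. Rfx5, Zbtb32, Cd79b, Krt8 and the other genes outside this rule were added after their values were seen. Some genes of the lists are not reported here and entered no list count, median or sum. Groups, replicate numbers and doses came from the labels. Gene names are the array's own, and 58.3% of probes carry an accession found in RefSeq (GRCm38.p6). Positions of probes are in the mm9 build. Exon and UTR annotation of that build was not used here.

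Alternatives were quantile normalization, normexp with an offset of 50, no filter, probes above background on all arrays, a replicate block, the authors' log2 values, the compared groups alone, a trended robust prior, the methods' t-test, the mean of a member's probes, and leaving out each array. A slide block was not run, since there was 1 slide. The fit was tested on simulated data. Python 3.11.15 with pandas 2.3.3, numpy 2.4.6, scipy 1.17.1 and matplotlib 3.10.9 made tables and plots.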

Additional observations from a re-analysis of the deposited data

How the results depend on the processing

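The combination count of 6 genes of 9 at adjusted p became 2 (H2-Aa and H2-DMa) with no filter on dim probes, 0 with the compared groups alone and 0 with the methods' t-test, and 4 with the replicate block (H2-Aa, H2-DMa, H2-Oa and Cd74). It ran from 0 to 7 when 1 array was left out, where a lone array was taken to vary like the other groups. At the unadjusted threshold the count of 7 higher became 0 with the methods' t-test, and it changed with 1 array left out. For anti-PD-1, the adjusted count of 0 ran from 0 to 5 with 1 array left out, and the unadjusted count of 5, H2-Ob included, became 0 with the compared groups alone, 0 with the methods' t-test, and ran from 0 to 7. For TP-16, the adjusted count of 0 became 2 with normexp and ran from 0 to 6 with 1 array left out, and the unadjusted count of 7 became 1 with the compared groups alone, 0 with the methods' t-test, and ran from 0 to 7. The replicate block changed no other count by over 1.5 times. Replicate numbers do not pair the samples, since deviations of replicate 1 correlated at -0.19 to 0.29 between groups. Among the differences of members from vehicle, signs turned for H2-DMb2 and H2-Ob only. With 1 array left out, the sign of the departure from additivity turned for 5 of the 8 genes other than H2-Ob, an alternative chosen after seeing the data. H2-DMb2 was -0.25 in the combination and -0.17 with TP-16 under normexp. With 1 array left out it ran from -0.0523 to 0.97 in the combination, from -0.15 to 0.88 with TP-16 and from -0.91 to 0.11 with anti-PD-1, the ends being without vehicle replicates 1 and 2. H2-Ob was 0.38 in the combination and 0.47 with TP-16 under quantile normalization, and 0.38 and 0.48 with the authors' log2 values. With 1 array left out it ran from -1.15 to 0.33 and from -1.12 to 0.37, the ends again being without vehicle replicates 1 and 2. The median of all genes in the combination was -0.22 here, -0.05 under quantile normalization and -0.30 under normexp. Counts for the 3 comparisons between treated groups and for additivity stayed at 0 at adjusted p in every alternative run. At the unadjusted threshold the count of 0 became, for the combination against TP-16, 1 with normexp and 1 with the compared groups alone, and ran from 0 to 1 with 1 array left out. Against anti-PD-1 it became 1 with quantile normalization, 2 with normexp, 1 with probes above background on all arrays, 1 with the authors' log2 values, 5 with the compared groups alone and 2 with the methods' t-test, and ran from 0 to 5. For TP-16 against anti-PD-1 it became 1 with quantile normalization, 1 with the authors' log2 values, 2 with the compared groups alone and 1 with the methods' t-test, and ran from 0 to 2. For additivity it ran from 0 to 6. The cause of these changes was not tested.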
